A study of Mus musculus with 9 samples.

Results

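DNA replication genes are the genes for the proteins that mark, open and copy DNA in S phase. They were chosen by name, with earlier results of these data known, as a fixed list of 47 gene symbols. All 47 were found among 35896 annotated genes and passed the expression filter that left 14648 genes for testing. Genome duplication starts when the origin recognition complex, CDC6 and CDT1 load the ring-shaped MCM2-7 helicase onto DNA, a step held back by geminin. The kinases CDC7 with DBF4 and CDK2 with cyclin E then switch the helicase on with CDC45 and the GINS complex, and polymerases, primase, the PCNA clamp with its loader, and the enzymes that mature Okazaki fragments follow the opened fork. Embryonic stem cells are known for a short G1 phase and for high cyclin E, and many genes of this machinery are known targets of E2F transcription factors.

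The data are 9 RNA-seq libraries from the mouse embryonic stem cell line E14, grown on gelatin in serum medium, in 3 groups of 3 cultures collected at 72 h. Control +LIF2i cells stayed in LIF with 1 µM PD0325901, an inhibitor of MEK, and 1 µM CHIR99021, an inhibitor of glycogen synthase kinase 3β, which together sustain self-renewal. Control -LIF2i cells went without all of these for 72 h, which starts spontaneous differentiation. CK666 -LIF2i cells went without them for the same time with 80 µM CK666, which blocks Arp2/3, the protein complex that starts branched actin filaments. CK666 came from a DMSO stock, and the labels call the other groups untreated, so drug and solvent cannot be told apart. All cells are of 1 line, and the labels name no engineered allele. The series asks what Arp2/3 activity contributes as these cells differentiate.

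Libraries held between 16894327 and 22550952 estimated counts, and the lowest count of any of the 47 genes in a library was 62, for Ccne2. Numbered replicates are described as paired, and the replicate 1 libraries stood apart from the others: they listed 15637 to 17551 genes above 0, against 18080 to 18636 in the other 6. For 33 of the 47 genes, replicate 1 lay on the same side of the mean of replicates 2 and 3 in all 3 groups. Its excess rose with the length of each gene's main transcript, with a Spearman rho across the 47 genes of 0.640, 0.594 and 0.522 in the 3 groups, a description over genes of the same libraries. Values are therefore compared within replicate numbers, which form a block in the fit. Of 7 pluripotent cell markers, 6 fell on withdrawal (Klf4 log2 fold change -5.79), from a summed 4894 to 5559 CPM to 1427 to 1589 CPM, while Pou5f1 did not pass the test. Of the 47 genes, 10 lie on chromosome 5 and 6 on chromosome 8. In bulk RNA, fewer cells in S phase and less RNA per cell cannot be told apart.

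The promoters are shown for genes in which the E2F motif TTTNGCGC lies wholly upstream of every annotated start, since 2 of them, Mcm5 and Mcm6, are among the genes that fell most. RefSeq promoters (GRCm38.p6, 250 bases before to 50 after the start) were found for 38 of the 47 genes. The motif was searched as TTTNGCGC on one strand and GCGCNAAA on the other, and overlapping matches were counted. It occurred in 10 of the 38 genes (26.3%), against 424 of 27025 genes (1.57%) with a promoter in the same table. The 38 were all tested, while the 27025 include untested genes. Among tested genes with a promoter, 301 held the motif and 10756 did not. The 10 replication genes were Mcm3, Mcm5, Mcm6, Mcm7, Orc1, Cdt1, Pola1, Pole2, Rfc3 and Lig1. Rrm2, Prim1, Cdc45 and Mcm10, also among the genes that fell most, had a promoter and no match. The 170 bases upstream of the start of Mcm5 (chr8:75109339-75109508, plus strand), Mcm6 (chr1:128359706-128359875, minus strand) and Pola1, the catalytic subunit of polymerase alpha (chrX:93632156-93632325, minus strand), read 5′ to 3′ as follows, with motif matches in capitals.
Mcm5: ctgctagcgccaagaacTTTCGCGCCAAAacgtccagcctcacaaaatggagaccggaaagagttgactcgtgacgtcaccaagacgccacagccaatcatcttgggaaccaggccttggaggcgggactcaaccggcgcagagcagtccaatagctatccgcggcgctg
Mcm6: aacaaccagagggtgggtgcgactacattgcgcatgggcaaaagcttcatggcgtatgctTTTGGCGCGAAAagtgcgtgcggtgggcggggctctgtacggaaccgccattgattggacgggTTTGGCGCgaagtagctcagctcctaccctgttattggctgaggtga
Pola1: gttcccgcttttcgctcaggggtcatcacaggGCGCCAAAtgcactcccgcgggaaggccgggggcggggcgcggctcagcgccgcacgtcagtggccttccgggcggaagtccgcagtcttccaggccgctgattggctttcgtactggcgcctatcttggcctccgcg

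Mcm5 holds a pair of matches that overlap on opposite strands, Mcm6 holds an overlapping pair and a further match, and Pola1 holds 1 match. The CCAAT box (CCAAT or ATTGG) was present in 23 of the 38 genes (60.5%), against 41.1% of all genes with a promoter. The CHR element (TTTGAA or TTCAAA), known from mitotic genes, was present in 7 of 38 (18.4%), against 20.2% of all. For both motifs the share of all genes includes untested genes. A match describes letters in this window and was not tested as a binding site.

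By TPM, which divides by transcript length so that genes can be compared, Mcm2 had the highest mean level of the 47 genes over the 9 libraries (350.2), followed by Mcm7 (346.0) and Mcm5 (330), and Ccne2 the lowest (9.27). The 3 leading genes ranged from 228 to 593, 252 to 515 and 183 to 640 TPM between libraries, so their order does not exceed their spread. After Mcm2, Mcm7 and Mcm5 the next were Rpa1 (277), the large subunit of the single-strand binding protein RPA, Mcm3 (245), Mcm6 (244) and Pcna (238), the sliding clamp. The lowest after Ccne2 were Gins3 (10.6), Cdc6 (24.0) and Pole2 (26.2).

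Loss of LIF2i lowered part of this machinery in a fit that pairs libraries by replicate number. Between control +LIF2i and control -LIF2i, 21 of 47 genes fell and 1 rose, at an adjusted p under 0.05. Over all 14648 genes tested, 40.7% were called, 19.7% lowered and 21.1% raised, so the share called among the 47 (46.8%) is near the background. The share lowered, 44.7%, was above that of all genes in this fit, but not without the replicate block, where 10.6% of the 47 and 10.9% of all genes were lowered, and close to it without the replicate 2 libraries (12.8% and 11.7%) or the replicate 3 libraries (10.6% and 9.54%). The median log2 fold change of the 47 was -0.31, against 0.01 over all genes, and 36 of the 47 had a value below 0, against 49.5% of all genes. A change of this kind is modest: 1 gene, Rrm2, exceeded a log2 fold change of 1 in either direction. Adjusted p-values come from the quasi-likelihood test of edgeR, corrected by the Benjamini-Hochberg method over all 14648 genes.

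**Figure D1:**
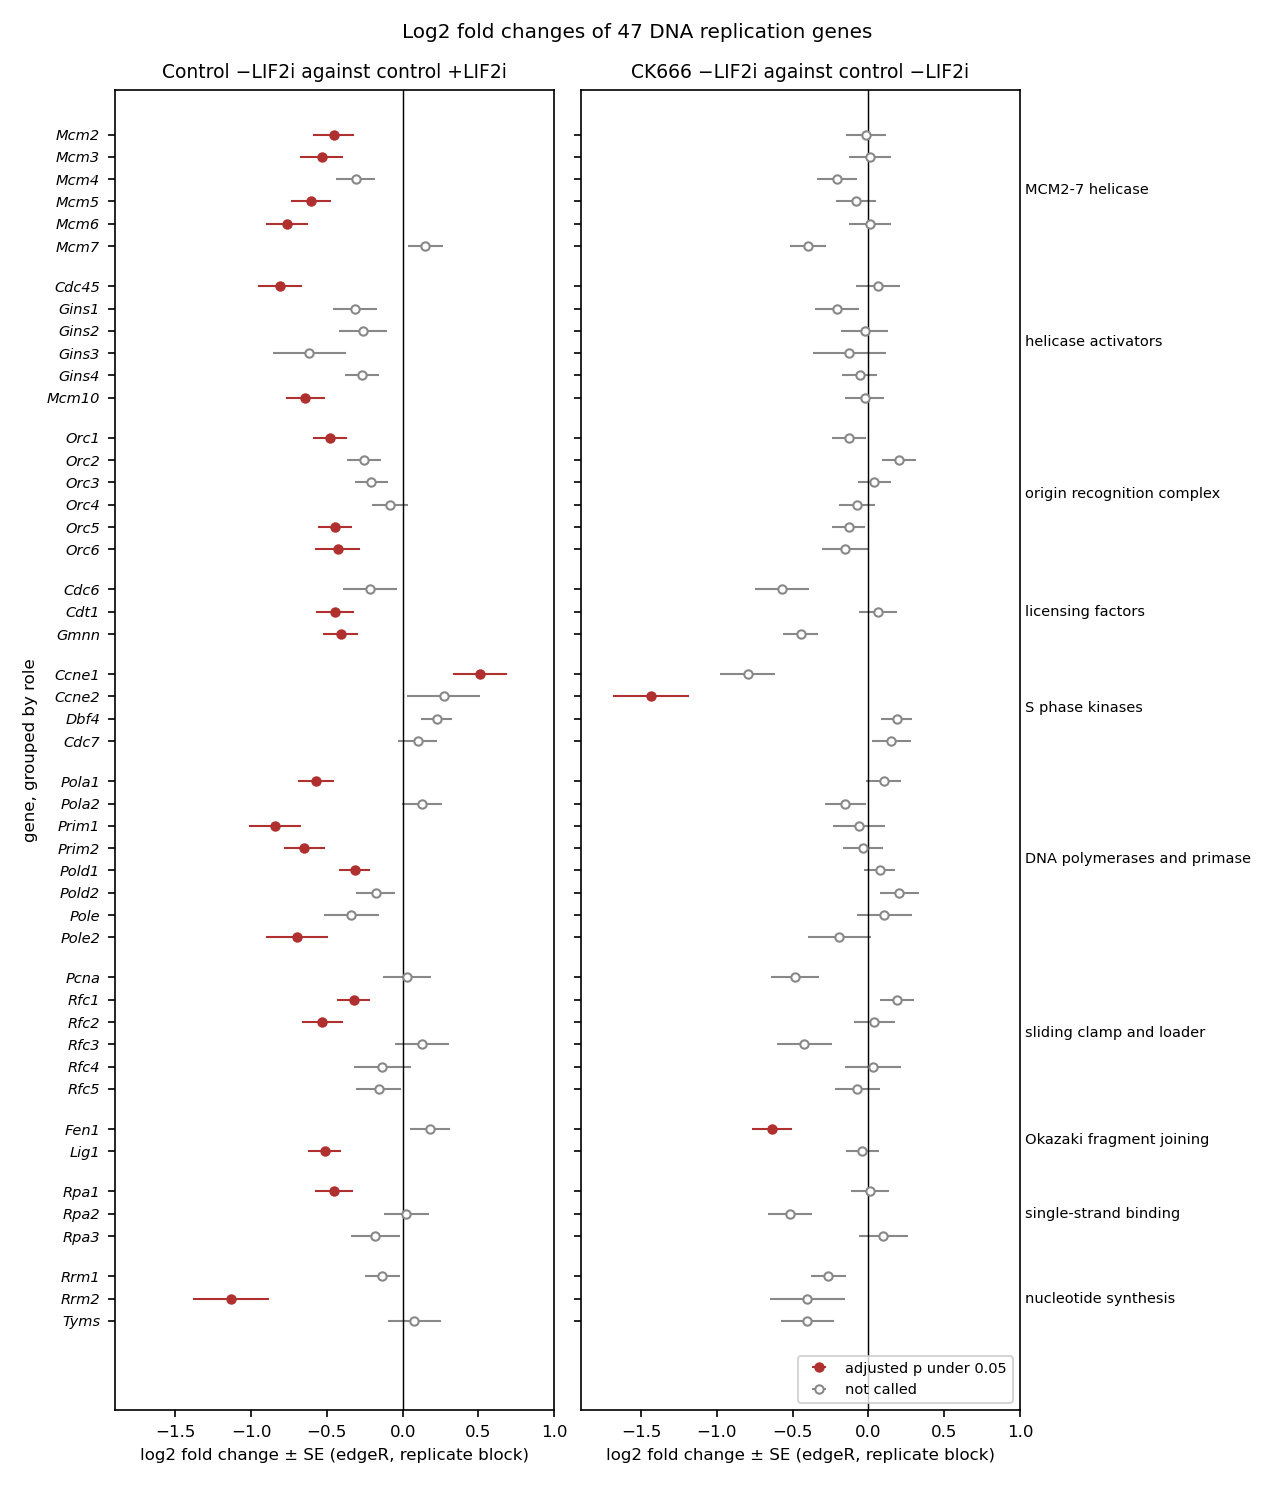
Log2 fold change with its standard error for each of the 47 genes, grouped by role, for control -LIF2i against control +LIF2i (left) and CK666 -LIF2i against control -LIF2i (right); filled red points have an adjusted p under 0.05. On the left 21 filled points lie below 0 and 1, Ccne1, above; on the right only Ccne2 and Fen1 are filled.

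Of the 6 helicase subunit genes, 4 fell: Mcm2, Mcm3, Mcm5 and Mcm6. Mcm4 was lower in all 3 pairs without passing the test (log2 fold change -0.31, SE 0.13, adjusted p = 0.0869), and Mcm7 had a value of 0.15 (SE 0.115, adjusted p = 0.331). Mcm6 (chr1:128331590-128359664) had 642, 574 and 558 TMM-scaled CPM in control +LIF2i replicates 1, 2 and 3 and 430.2, 328 and 301 in control -LIF2i. All 3 withdrawn libraries lay below all 3 self-renewing ones, and the log2 fold change was -0.76 (SE 0.14, adjusted p = 0.00224).

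Mcm5 (chr8:75109569-75128439) had 952, 630.3 and 671 CPM with LIF2i and 711, 396 and 410 without. It was lower in each of 3 pairs, but the groups overlapped because replicate 1 was high in both. Its log2 fold change was -0.61 (SE 0.132, adjusted p = 0.00573). Mcm2 had 1112, 822 and 862 CPM with LIF2i and 977, 548 and 574 without, a log2 fold change of -0.46 (SE 0.133, adjusted p = 0.0219). It too fell in each pair while its groups overlapped. The Mcm2 call was lost without the replicate block (adjusted p = 0.398) and without replicate 2 or 3 of either control group (0.0865 to 0.124).

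Mcm7 (chr5:138164583-138172422) had 627, 446 and 465 CPM with LIF2i and 640.0, 556 and 499 without, higher in each pair on this scale. In TPM it was 515, 257 and 293 with LIF2i and 478, 355 and 326 without, lower in replicate 1 and higher in the other 2 pairs. The ratio of Mcm7 to the mean of Mcm2 to Mcm6, in TPM, was 1.14, 1.02 and 1.06 in control +LIF2i and 1.44, 1.95 and 1.77 in control -LIF2i. With CK666 it was 1.20, 1.44 and 1.56. The ratio was computed after the values were seen and has no test. Because 12.6% of the exonic bases of Mcm7 overlap other genes (Ap4m1 and Cops6 on the opposite strand, Mir25 and Mir93 on the same), and the library kit does not mark strand, part of its counts may be shared. Mcm4 had the lowest TPM of the 6 subunits in all 9 libraries, and Mcm7 the highest in 4.

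**Figure D2:**
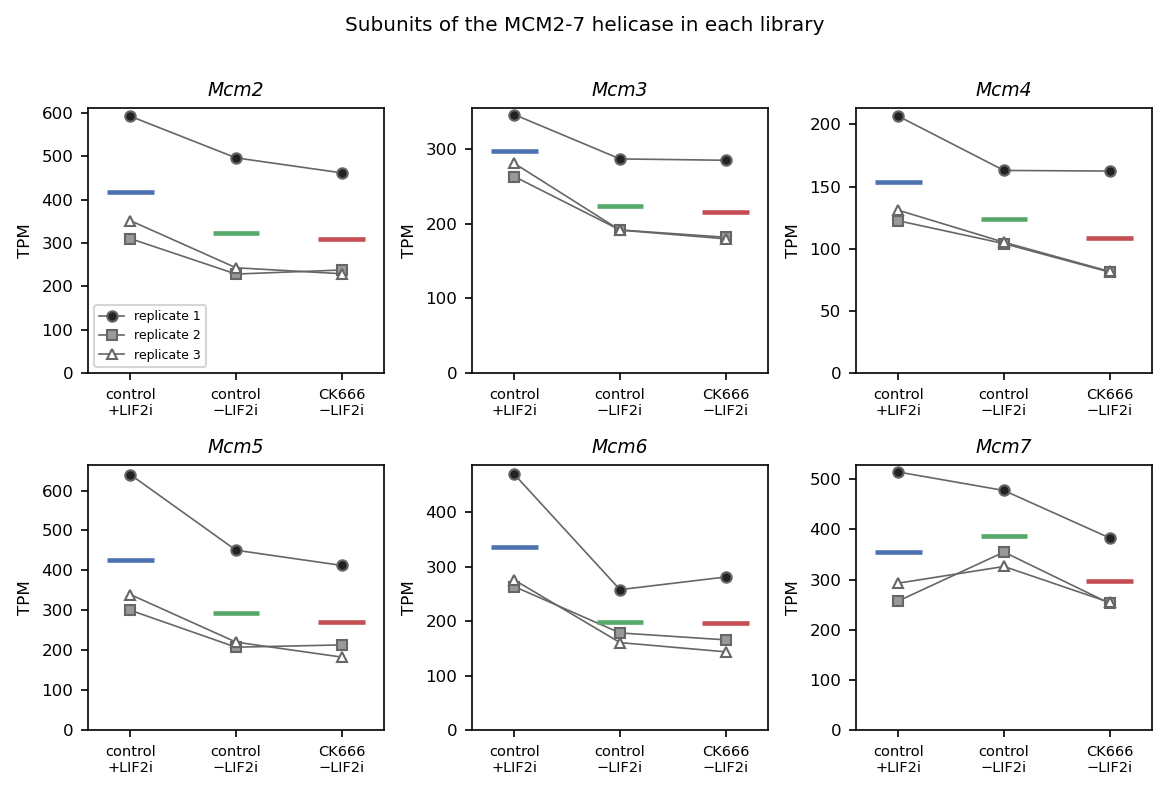
TPM of the 6 MCM2-7 subunit genes in each library; lines join libraries with the same replicate number and coloured bars are group means (n = 3). Replicate 1 is high throughout; in replicates 2 and 3, Mcm2, Mcm3, Mcm5 and Mcm6 step down from control +LIF2i to control -LIF2i while Mcm7 steps up, and in replicate 1 all 6 genes step down.

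Among helicase activators, Cdc45 and Mcm10 fell, and the 4 GINS genes did not pass the test, with values between -0.61 (Gins3) and -0.26 (Gins2). Cdc45 (chr16:18780447-18811987), which joins the helicase at firing, had 54.4, 72.1 and 64.6 CPM with LIF2i and 28.6, 39.8 and 40.8 without. The groups did not overlap, and the log2 fold change was -0.81 (SE 0.144, adjusted p = 0.00195). Mcm10 (chr2:4989714-5012791), which helps activate the assembled helicase, had 241, 162 and 184 CPM with LIF2i and 170.2, 105 and 106 without, a log2 fold change of -0.64 (SE 0.128, adjusted p = 0.00357). It was lower in each pair, and the groups overlapped through replicate 1. Gins4, with the highest mean TPM of this group (105), had 88.6, 99.2 and 96.0 CPM with LIF2i and 83.2, 77.3 and 75.3 without, separate groups that did not pass (-0.27, SE 0.114, adjusted p = 0.0891).

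Of the origin recognition complex, Orc1, Orc5 and Orc6 fell, with log2 fold changes of -0.48, -0.45 and -0.43, and Orc2, Orc3 and Orc4 had -0.26, -0.21 and -0.08 without passing. Orc6 had the highest mean TPM of this group (118). Its CPM was 67.0, 133 and 128 with LIF2i, 61.4, 80.0 and 95.5 without, and 54.9, 88.3 and 70.0 with CK666. Without LIF2i it was lower in each pair, and the groups overlapped through a low replicate 1 with LIF2i (SE 0.15, adjusted p = 0.0454). The Orc6 call was made in 9 of 22 alternative analyses, and was lost without the block (adjusted p = 0.288) and without any 1 of 7 libraries (0.0623 to 0.23): control +LIF2i replicates 2 and 3, control -LIF2i replicates 1, 2 and 3, and CK666 replicates 1 and 2. Of its exonic bases, 6.93% overlap Vps35 on the opposite strand.

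Of the licensing factors, Cdt1 fell (-0.45, SE 0.125, adjusted p = 0.0183) and so did Gmnn, which encodes geminin, the inhibitor of CDT1 (-0.41, SE 0.115, adjusted p = 0.0191). Cdc6 had -0.22 (SE 0.176, adjusted p = 0.359). Cdt1 had 225, 271 and 308 CPM with LIF2i and 185, 191 and 211 without, and all 3 withdrawn libraries lay below all 3 self-renewing ones. The Cdt1 to Gmnn ratio in TPM was 1.23 ± 0.326 (SD, n = 3) with LIF2i and 1.21 ± 0.308 (SD, n = 3) without. With CK666 it was 2.71, 1.37 and 1.34, against 1.55, 0.941 and 1.15 in control -LIF2i, higher in each pair with overlapping groups, a description with no test. Without the block the adjusted p was 0.0854 for Cdt1 and 0.409 for Gmnn, and both calls were also lost without replicate 2 or 3 of either control group, and that of Cdt1 without control -LIF2i replicate 1 (0.0632 to 0.11).

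None of the 4 genes grouped as S phase kinases fell, a group of the kinase gene Cdc7 and genes for kinase partners. Ccne1, Ccne2, Dbf4 and Cdc7 all had values above 0, from 0.10 to 0.51, and Ccne1 rose. Cdk2, for the kinase that works with cyclin E, is outside this group and fell (-0.81, adjusted p = 0.00154). Ccne1 (chr7:38097984-38107534), for cyclin E1, had 114, 98.0 and 98.2 CPM with LIF2i and 201, 127 and 129 without. Every withdrawn library exceeded every self-renewing one, and the log2 fold change was 0.51 (SE 0.181, adjusted p = 0.0477). This call is close to the threshold: it was made in 12 of 22 alternative analyses, and was lost without control +LIF2i replicate 1 (0.32, adjusted p = 0.0958) or replicate 3 (0.63, adjusted p = 0.0611), without any 1 of the control -LIF2i replicates (adjusted p = 0.0838, 0.135 and 0.145) and without CK666 replicate 2 (adjusted p = 0.0515).

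Among polymerases and primase, both primase genes, Pola1, Pold1 and Pole2 fell, while Pola2 (0.13), Pold2 (-0.18) and Pole (-0.34) did not pass. The Pold1 call (-0.32, adjusted p = 0.0344) was made in 8 of 22 alternatives, and was lost without the block (adjusted p = 0.211) and without any 1 of 7 libraries (0.0607 to 0.148): control +LIF2i replicates 2 and 3, control -LIF2i replicates 1, 2 and 3, and CK666 replicates 2 and 3. Prim1 (chr10:128015168-128030037), the catalytic primase subunit that makes RNA primers, had 91.3, 91.5 and 90.7 CPM with LIF2i and 50.1, 51.0 and 51.3 without. Values were even within each group, replicate 1 included, and the log2 fold change was -0.84 (SE 0.173, adjusted p = 0.00411). Prim2 (chr1:33453810-33669795), its partner, had 55.2, 61.4 and 62.1 CPM with LIF2i and 39.1, 40.5 and 34.8 without (-0.65, SE 0.132, adjusted p = 0.00396).

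Neither primase gene's groups overlapped. Pole2 (chr12:69201773-69228195), the second subunit of polymerase epsilon, had 24.0, 46.4 and 46.8 CPM with LIF2i and 23.7, 23.2 and 22.8 without. The groups were separate by a narrow margin in replicate 1, and the log2 fold change was -0.70 (SE 0.207, adjusted p = 0.0238). The Pole2 call was lost without control +LIF2i replicate 2 (adjusted p = 0.0966) or replicate 3 (0.136) and without control -LIF2i replicate 2 or replicate 3 (0.123 each). Pold2, with the highest mean TPM of this group (156), had 120.3, 201 and 161 CPM with LIF2i and 115, 179 and 132 without, and its groups overlapped.

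The clamp gene did not pass the test. Pcna (chr2:132249162-132253314) had 197, 249 and 252 CPM with LIF2i and 219, 220.0 and 273 without, a log2 fold change of 0.03 (SE 0.158, adjusted p = 0.913), with higher and lower pairs. Of the clamp loader, Rfc1 (-0.32) and Rfc2 (-0.53) fell, and Rfc3 (0.13), Rfc4 (-0.13) and Rfc5 (-0.16) did not pass. The Rfc1 call (adjusted p = 0.0402) was made in 8 of 22 alternatives, and was lost without the block (adjusted p = 0.475) and without any 1 of control +LIF2i replicates 2 and 3, control -LIF2i replicates 1, 2 and 3, and CK666 replicates 2 and 3 (0.068 to 0.173).

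For Okazaki fragment joining, the ligase gene Lig1 fell, with 543, 390.4 and 377 CPM with LIF2i and 407, 257 and 264 without (-0.51, SE 0.109, adjusted p = 0.00501). The flap nuclease gene Fen1 had 0.18 (SE 0.132, adjusted p = 0.311). For single-strand binding, Rpa1 fell, from 506, 322 and 291 to 449, 201 and 206 CPM (-0.45, SE 0.126, adjusted p = 0.0185). It was lower in each pair and its groups overlapped, and Rpa2 (0.03) and Rpa3 (-0.18) did not pass. The Rpa1 call was lost without the block (adjusted p = 0.564) and without replicate 2 or 3 of either control group (0.0774 to 0.117).

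Nucleotide synthesis held the largest fall. Rrm2 (chr12:24708241-24714146), the small subunit of ribonucleotide reductase whose amount is known to follow S phase, had 250.1, 371 and 345 CPM with LIF2i and 162, 119 and 164 without. The groups did not overlap, and the log2 fold change was -1.13 (SE 0.251, adjusted p = 0.0066). The large subunit gene Rrm1 had 484, 261 and 227 CPM with LIF2i and 394, 233 and 236 without, which overlap (-0.13, SE 0.116, adjusted p = 0.387). Tyms, for thymidylate synthase, had 0.08 (SE 0.175, adjusted p = 0.756). The Rrm1 to Rrm2 ratio in TPM was 0.998, 0.373 and 0.353 with LIF2i and 1.23, 1.01 and 0.811 without, a description with no test in which replicate 1 with LIF2i lies inside the range of the withdrawn libraries.

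**Figure D3:**
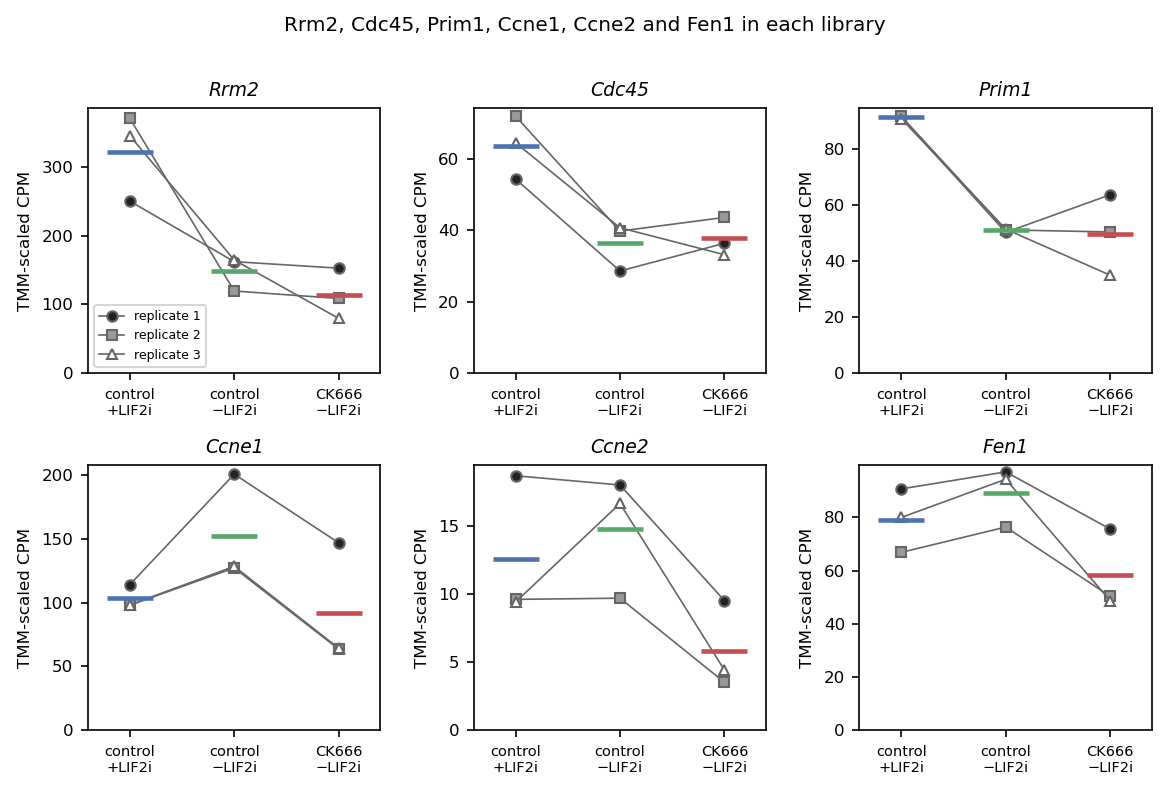
TMM-scaled CPM of Rrm2, Cdc45, Prim1, Ccne1, Ccne2 and Fen1 in each library; lines join libraries with the same replicate number and coloured bars are group means (n = 3). Rrm2, Cdc45 and Prim1 step down at withdrawal, Ccne1 steps up, and within each replicate number Ccne2 and Fen1 are lowest in the CK666 library.

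How firmly these counts stand differs by gene. Cdc45 and Prim1 were called in all 22 alternative analyses, and Rrm2, Mcm6, Prim2 and Mcm10 in 21, while the other 15 lowered genes were called in 8 to 20. Without the replicate block 5 of the 47 genes were called, all lowered (Cdc45, Orc5, Prim1, Prim2 and Rrm2). This is 10.6% of the 47, against 10.9% of all genes lowered and 24.0% called. Lowered genes made up 19.1% of the 47 without control +LIF2i replicate 3 (9 genes), against 13.5% of all genes, and 25.5% without its replicate 2 (12 genes), against 15.9%. They made up 21.3% without control -LIF2i replicate 2 or replicate 3 (10 genes each), against 13.4% and 12.7%. Without all 3 libraries of replicate 1, 2 or 3 they numbered 26, 6 and 5, or 55.3%, 12.8% and 10.6%, against 21.1%, 11.7% and 9.54% of all genes. By group overlap, which does not use the fit, 12 of the 47 genes had all withdrawn libraries below all self-renewing ones, against 19.2% of all genes, and 1, Ccne1, the reverse, against 21.5%.

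Of the 10 genes with the E2F motif, 8 fell on withdrawal, with a median log2 fold change of -0.52, and the other 2 were Mcm7 and Rfc3. Of the 28 with a promoter but no match, 10 fell and 1 rose, with a median of -0.19. Over all tested genes with a promoter in the table, 22.3% of 301 with the motif and 20.0% of 10756 without it were lowered. The 9 genes without a RefSeq promoter in the table are not in this count, and the difference was not tested. These counts come from the fit with the block, in which 19.7% of all genes were lowered; without the block none of the 10 was called.

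Related genes are given from lists, to be read against the 40.7% of all genes called on withdrawal, 21.1% raised and 19.7% lowered. Of 19 E2F and RB regulators, 6 rose and 7 fell. Cdkn1c, for the CDK inhibitor p57, rose most (log2 fold change 2.15, from 7.41 to 37.0 mean CPM), and E2f7, a repressor E2F, rose by 1.08. Rbl2 (-1.60) and E2f1 (-1.24), for a pocket protein and an activator E2F, fell. Of 18 fork accessory genes tested, 7 fell and 1 rose, a share called near that of all genes. The largest were Rnaseh2c (0.87), a subunit of ribonuclease H2, Atad5 (-0.81), which unloads PCNA, Rnaseh2b (-0.73) and Dna2 (-0.62), a helicase-nuclease. Of 8 origin firing genes, 3 fell and none rose: Ticrr (-0.89), Cdk2 (-0.81) and Mtbp (-0.60), and the other 5 were between -0.24 and 0.27.

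Of 10 further nucleotide synthesis genes, Dut (0.66), a dUTPase, and Cad (0.53), for the first steps of pyrimidine synthesis, rose, and Rrm2b (-1.50), the other small subunit of ribonucleotide reductase, fell. Of 6 chromatin assembly genes, Uhrf1 (-1.08), a partner of maintenance DNA methylation, and the histone chaperone gene Asf1b (-0.80) fell. Of 6 genes for replication protein turnover, Usp37 (-0.97), Dtl (-0.68) and Fbxo5 (-0.33) fell and Skp2 (0.45) rose. Neither Mcm8 nor Mcm9, relatives of the helicase, passed.

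Mitotic genes are set beside these as another phase of the same cycle. Of 20, 2 rose (Cdc20, 1.08, and Plk1, 0.77) and 2 fell (Anln, -0.65, and Ccnb2, -0.55), against 40.7% of all genes called, and their median was -0.05, against -0.31 for the replication genes. Mki67, a general proliferation marker, had 0.07 (adjusted p = 0.776). The summed CPM of the 20 genes was 4453, 3713 and 3851 with LIF2i and 3846, 4357 and 3747 without. That of the 47 replication genes was 10080, 8670.0 and 8757 with LIF2i and 8709, 6512 and 6492 without. The groups overlap for both sums. Within replicate numbers the replication sum without LIF2i was 0.864, 0.751 and 0.741 of that with LIF2i, and the mitotic sum 0.864, 1.17 and 0.973. No test of the difference between the lists was made.

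Markers of other cell types moved at low levels on withdrawal. Of 4 fibroblast markers 3 rose (Thy1 from 4.20 to 21.2 mean CPM), and the other had a log2 fold change of -0.88 without passing. The summed CPM of the 4 was 11.7 to 28.3 with LIF2i and 30.5 to 42.1 without. Of 3 mesoderm markers 2 were tested and 1 rose (Mixl1), with sums of 6.93 to 14.8 and 7.53 to 16.5 CPM. None of 4 primitive endoderm markers passed (sums of 7.62 to 11.8 and 5.92 to 13.4 CPM). Of 3 trophoblast markers only Gata3 was expressed enough to be tested (1.12, SE 0.754, adjusted p = 0.266), and their summed CPM was 0.546 to 1.23 with LIF2i and 1.45 to 3.24 without, which do not overlap. Their part in the changes of the replication genes was not tested.

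Few of these genes passed the test for CK666. Between CK666 -LIF2i and control -LIF2i, 2 of the 47 genes fell, Ccne2 and Fen1, and none rose. Over all genes, 2.05% were called, 0.894% lowered and 1.15% raised, so 2 of 47 (4.26%) is a small count read against a small background. The median log2 fold change of the 47 was -0.06, against 0.02 over all genes, and 30 of 47 had a value below 0, against 48.3% of all genes. At an unadjusted p under 0.05 there were 11 of 47, against 19.7% of all genes, a share near the background. This comparison and the one for withdrawal share the control -LIF2i libraries.

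Ccne2 (chr4:11191351-11204779), for cyclin E2, had 18.0, 9.71 and 16.7 CPM in control -LIF2i and 9.53, 3.51 and 4.41 with CK666. All 3 CK666 libraries lay below all 3 controls, by a narrow margin, and the log2 fold change was -1.43 (SE 0.249, adjusted p = 0.0304). In control +LIF2i it had 18.7, 9.62 and 9.41 CPM. Fen1 (chr19:10199132-10204169), which cuts the flaps of Okazaki fragments, had 97.2, 76.4 and 94.4 CPM in control -LIF2i and 75.6, 50.3 and 48.7 with CK666. These groups were also apart by a narrow margin, and the log2 fold change was -0.64 (SE 0.133, adjusted p = 0.0469). For Fen1, 84.2% of the exonic bases overlap Gm10143 and Tmem258 on the opposite strand, and for Ccne2 17.4% overlap Ints8.

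Both calls depend on single libraries and on the fit. Ccne2 was called in 14 of 22 alternatives and Fen1 in 10, and without the replicate block the adjusted p was 0.418 and 0.431. The Ccne2 call was lost without control -LIF2i replicate 2 (adjusted p = 0.153) or replicate 3 (0.177) and without CK666 replicate 2 (0.204) or replicate 3 (0.139). The Fen1 call was lost without control +LIF2i replicate 2 (0.0562) or replicate 3 (0.0806), without control -LIF2i replicate 1, 2 or 3 (0.0648, 0.189 and 0.26), and without CK666 replicate 2 (0.224) or replicate 3 (0.198). Without all replicate 1 libraries, 10 of the 47 genes were called, all lowered, of 12.3% of all genes: Ccne1, Ccne2, Cdc6, Fen1, Gmnn, Mcm4, Mcm7, Pcna, Rpa2 and Tyms. Without replicate 2 or replicate 3, and without the block, none was called by edgeR. Without the block 5 had an unadjusted p under 0.05, against 1251 of all 14648 genes. DESeq2 with the block called 7, all lowered, against 8.44% of all genes called and 4.115% lowered.

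Several genes that did not pass had all 3 pairs on 1 side. Ccne1 had 201, 127 and 129 CPM in control -LIF2i and 147, 63.5 and 64.2 with CK666, a log2 fold change of -0.80 (SE 0.182, adjusted p = 0.057), lower in each pair with overlapping groups. It was called in 8 of 22 alternatives. Pcna had 199, 154 and 153 CPM with CK666, below all 3 control -LIF2i values (-0.49, SE 0.159, adjusted p = 0.135). Cdc6 had -0.57 (SE 0.177, adjusted p = 0.121), Rpa2 -0.52 (SE 0.148, adjusted p = 0.098), Gmnn -0.45 (SE 0.116, adjusted p = 0.0787) and Mcm7 -0.40 (SE 0.116, adjusted p = 0.101). In all, 18 of 47 genes were lower with CK666 in each of 3 pairs, against 23.3% of all genes, and 6 had separate groups with CK666 lower, against 7.69%. In the other direction 4 genes were higher in each pair, against 25.3%, and none had separate groups, against 8.79%.

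The 8 genes that fell most on withdrawal did not pass the test for CK666. Rrm2 had 152, 108 and 79.4 CPM with CK666 (log2 fold change against control -LIF2i -0.40, SE 0.249, adjusted p = 0.413). Mcm6 had 497, 316 and 271 CPM (0.01, SE 0.139, adjusted p = 0.984), and Mcm5 had 687, 414 and 337 CPM (-0.08, SE 0.132, adjusted p = 0.78). Cdc45 had 36.4, 43.6 and 33.2 CPM (0.06, SE 0.144, adjusted p = 0.854), and Mcm10 had 168, 118 and 90.8 CPM (-0.02, SE 0.128, adjusted p = 0.946). These p-values do not show that the groups are equal.

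Prim1 had 63.5, 50.3 and 34.9 CPM with CK666, a wider spread than in either control group, and its value was -0.06 (SE 0.173, adjusted p = 0.884). Prim2 had 38.1, 41.4 and 32.1 CPM (-0.04, SE 0.132, adjusted p = 0.91), and Pole2 had 18.3, 23.2 and 20.2 CPM (-0.19, SE 0.207, adjusted p = 0.663).

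None of the genes on the regulator, fork, firing, nucleotide, chromatin, turnover or mitosis lists passed for CK666 against control -LIF2i with edgeR. At an unadjusted p under 0.05 there were 9 of 19 E2F and RB regulators, 4 of 18 fork accessory genes, 3 of 8 firing genes, 5 of 10 nucleotide genes, 3 of 6 chromatin assembly genes, 1 of 6 turnover genes, 1 of 2 helicase relatives and 3 of 20 mitotic genes, against 19.7% of all genes. Marker genes of other cell types were low in all libraries. The summed CPM of 4 primitive endoderm markers was 5.92 to 13.4 in control -LIF2i and 12.5 to 16.9 with CK666, that of 3 mesoderm markers 7.53 to 16.5 and 3.52 to 7.06, that of 3 trophoblast markers 1.45 to 3.24 and 2.43 to 4.69, and that of 4 fibroblast markers 30.5 to 42.1 and 21.5 to 29.4. Brachyury (T), Cdx2 and Elf5 did not pass the expression filter, and 7 pluripotent cell markers summed to 1427 to 1589 and 1604 to 1943 CPM. The part of these differences in the replication genes was not tested.

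Set against self-renewing cells, CK666 -LIF2i cells had 30 of the 47 genes called, 29 lowered and 1 raised, against 36.9% of all genes called, 17.1% lowered and 19.8% raised. The self-renewal libraries are the same as in the withdrawal comparison. The median log2 fold change of the 47 was -0.46, against 0.01 over all genes. In 32 of 47 genes the CK666 library was lower in each of 3 pairs, against 30.1% of all genes. The groups were separate for 17 genes, against 37.3% of all genes, with CK666 lower in 16, against 16.8%, and higher in Dbf4, against 20.5%. Rrm2 (-1.53, SE 0.255, adjusted p = 0.00174), Ccne2 (-1.16, SE 0.247, adjusted p = 0.00575), Prim1 (-0.90, SE 0.174, adjusted p = 0.00338), Pole2 (-0.89, SE 0.207, adjusted p = 0.00904) and Gmnn (-0.85, SE 0.116, adjusted p = 0.000524) fell most, followed by Cdc6 (-0.79), Mcm6 (-0.76) and Cdc45 (-0.75).

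Markers of other cell types also passed in this comparison, at low levels. Of 4 primitive endoderm markers Pdgfra rose (log2 fold change 2.09), with sums of 7.62 to 11.8 CPM with LIF2i and 12.5 to 16.9 with CK666. The 1 tested trophoblast marker, Gata3, rose (2.19), with sums over the 3 markers of 0.546 to 1.23 and 2.43 to 4.69 CPM. Of 2 tested mesoderm markers Mixl1 rose (4.32) and Eomes fell (-1.09), with sums of 6.93 to 14.8 and 3.52 to 7.06 CPM. Of 4 fibroblast markers Col1a2 (2.78) and Thy1 (1.64) rose and the other 2 did not pass. Of these, 1 had -1.02, with CK666 lower in separate groups. The sums over the 4 were 11.7 to 28.3 and 21.5 to 29.4 CPM. Of 7 pluripotent cell markers 6 fell, from sums of 4894 to 5559 CPM to 1604 to 1943 CPM. Their part in the changes of the replication genes was not tested.

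Cdc6, which helps load the helicase, had 55.2, 64.5 and 57.8 CPM with LIF2i, 58.4, 46.6 and 49.6 in control -LIF2i and 47.3, 29.4 and 28.6 with CK666, so every CK666 library was below every self-renewing one (SE 0.178, adjusted p = 0.00776). Gmnn had 50.5, 109 and 94.4 CPM with LIF2i, 43.0, 75.0 and 69.2 in control -LIF2i and 29.8, 55.5 and 53.5 with CK666, lower at each step in each replicate number, with overlapping groups. Dbf4, the activating partner of CDC7, rose: it had 178, 135 and 167 CPM with LIF2i and 239, 189 and 209 with CK666, with separate groups (log2 fold change 0.41, SE 0.103, adjusted p = 0.0126). Control -LIF2i lay between, with 210.5, 171 and 178 CPM. The share lowered depends on the fit and on single libraries. Without the replicate block 7 genes were called, all lowered (Cdc45, Cdc6, Orc5, Pole2, Prim1, Prim2 and Rrm2), or 14.9% of the 47, against 8.10% of all genes lowered and 20.2% called. Of the 8 genes that fell most, Ccne2 (adjusted p = 0.116), Gmnn (0.107) and Mcm6 (0.0842) lost their calls without the block. The Pole2 call was lost without control +LIF2i replicate 3 (0.0586) or CK666 replicate 3 (0.0536). Without control +LIF2i replicate 2 the lowered share was 34.0%, against 13.4% of all genes, and without its replicate 3 it was 29.8%, against 10.8%. Without CK666 replicate 2 it was 34.0%, against 11.1%, and without CK666 replicate 3 it was 27.7%, against 10.1%. Without all 3 libraries of replicate 2 it was 25.5%, against 10.02%, and without those of replicate 3 it was 8.51%, close to the 6.68% of all genes. Without the replicate 3 libraries Pole2, Cdc6, Mcm6 and Cdc45 lost their calls, and without those of replicate 2 Pole2 and Cdc6 did. Dbf4 lost its call without the block (adjusted p = 0.145), without control +LIF2i replicate 2 (0.0574) and without CK666 replicate 2 (0.0577) or replicate 3 (0.0509).

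The estimated counts also divide each gene between its transcripts, and here Cdc7, the S phase kinase that phosphorylates the MCM ring, differed with CK666 while its total did not pass the test. In total Cdc7 (chr5:106964322-106984432) had 37.6, 60.7 and 61.3 CPM in control -LIF2i and 37.1, 69.1 and 74.2 with CK666 (0.15, SE 0.129, adjusted p = 0.576). The coding transcripts ENSMUST00000031221.11 and ENSMUST00000117196.8 differ by exon 8 of the former's 12, a coding exon of 96 bases, or 32 codons with no remainder, which the latter lacks. The exon lies at chr5:106974601-106974696 (GRCm38, GENCODE M21, plus strand) and is shown because the transcript difference turns on it.
Cdc7 exon 8: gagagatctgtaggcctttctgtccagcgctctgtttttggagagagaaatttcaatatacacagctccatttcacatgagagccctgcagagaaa

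Of the estimated counts of these 2 transcripts, the one without the exon held 0%, 17.8% and 16.2% in control +LIF2i and 17.6%, 17.9% and 8.93% in control -LIF2i. With CK666 it held 60.1%, 43.5% and 43.3%. All 3 CK666 libraries lay above all 6 others, with means of 11.3% ± 9.84, 14.8% ± 5.10 and 48.9% ± 9.65 (SD, n = 3 each). The counts behind this were 187 with and 282 without the exon in CK666 replicate 1, 492 and 378 in replicate 2, and 593 and 452 in replicate 3. In control -LIF2i they were 374 and 79.9, 695 and 152, and 717 and 70.3. These 2 transcripts held 60.5% to 90.5% of the counts of the 4 coding transcripts of Cdc7. Of the others, ENSMUST00000076467.12 lacks the exon too and ENSMUST00000118261.7 has it. Over all 4, transcripts without the exon held 10.5%, 23.5% and 20.6% in control +LIF2i, 27.9%, 24.2% and 18.2% in control -LIF2i and 52.9%, 44.0% and 46.6% with CK666, again with every CK666 library above the other 6.

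The exon was chosen after these values were seen, so it has no test. For scale, among 10412 coding transcripts of tested genes with at least 100 counts in every library and a mean share of 5% to 95% of their gene's coding counts, 11.5% had separate groups between CK666 and control -LIF2i, and 2.35% were separate by at least 15 percentage points. The Cdc7 transcript without the exon differed by 26.6 points on this measure. The transcript with it, ENSMUST00000031221.11, differed by -24.2 points with overlapping groups, at 49.8% to 75.7% in control -LIF2i and 26.2% to 51.2% with CK666, and the other 2 Cdc7 transcripts overlapped too (-2.24 and -0.22 points). Of 33 such transcripts of 15 replication genes, 2 were separate, and Cdc7 was the 1 separate by at least 15 points. For withdrawal, 4 of the 33 were separate, none by that margin, against 14.5% and 5.20% of all. The counts are estimates that assign reads shared by several transcripts, and reads across the exon's junctions were not examined.

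**Figure D4:**
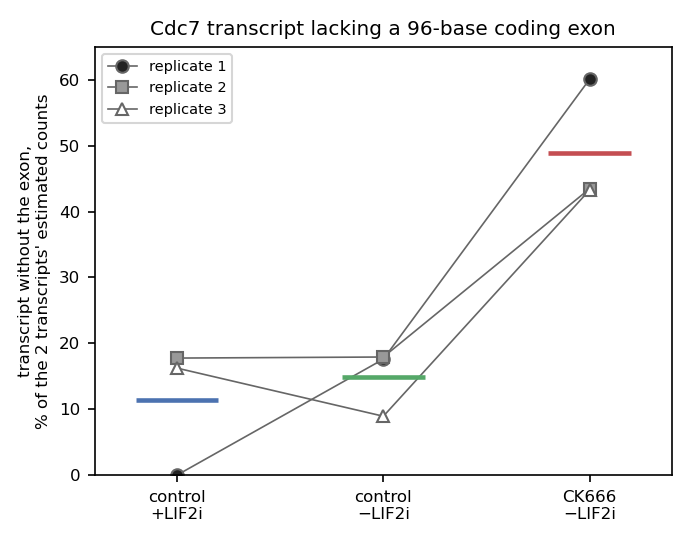
Share of the Cdc7 transcript without the 96-base exon, as a percentage of the estimated counts of the 2 transcripts with and without it, in each library; lines join libraries with the same replicate number and coloured bars are group means (n = 3). The 3 CK666 libraries lie between 43.3% and 60.1%, above the highest other library at 17.9%.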

How the data were processed

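Poly-A RNA of 9 libraries was sequenced from unstranded kits, per the labels' protocols. The submitters' processing notes name FastQC, cutadapt 1.8.1, kallisto and sleuth, and the builds GRCh38 and mm10, with no role given. For each transcript the authors deposited estimated counts, which are raw and may be fractional, and TPM, scaled within a library after division by effective length. Length and effective length are other columns the authors deposited, the latter used here for a length correction.

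Transcripts were matched to GENCODE M21 (GRCm38) by identifier, 116640 of 119414 (97.7%), and 116073 had the same version and length. The unmatched held 0.895% to 1.08% of a library's counts and were left out. Estimated counts were summed per gene, rounded, and tested with edgeR 4.0.16 in R 4.3.3 (robust quasi-likelihood, TMM, edgeR's expression filter), all 9 libraries in 1 fit, with replicate number as a block and 4 residual degrees of freedom. The study's design text calls the replicates paired and biological. Deviations from group means correlated at 0.303 to 0.653 between same-numbered libraries (median 0.407). Between other numbers they correlated at -0.525 to 0.286 (median -0.367). Such deviations cancel out within each group, so negative values between other numbers are in part forced. These correlations therefore cannot decide whether the replicates are paired. If replicates share a source, p-values measure only the spread between these samples. A gene was called at an adjusted p under 0.05, and SEs come from the test statistic. CPM is TMM-scaled, and 3 counts, the detection floor, correspond to 0.134 to 0.179 CPM, for counting error only. 22 alternatives were run, with DESeq2 1.42.0 and limma 3.58.1 among them.

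The fit was tested on counts simulated for withdrawal over 14648 genes: the block fit recovered 55 of 100 genes changed 2-fold and 100 of 100 changed 4-fold, and made 7 false calls. With no block it recovered 1 and 61, with 0 false calls. The simulated counts carried replicate differences taken from these same libraries and the common dispersion of the block fit. The simulation therefore cannot decide whether the block is needed. The 47 genes, the lists and the motifs were chosen with earlier results of these data known. Named in full were called genes with the largest log2 fold change, up to 8 a comparison, Pcna, and the member of each role group with the highest mean TPM. Listed genes were named by the same rule, up to 4 a list; further names were chosen after their values were seen. Chtf8, annotated as 2 overlapping genes, was left out of its list. Of the 47 genes, 17 share exonic bases with another gene, 9 of them over 10%. TPM of genes with short retained-intron transcripts can be inflated.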

Additional observations from a re-analysis of the deposited data

How the results depend on the processing

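Alternatives kept the direction of every called gene among the 47 in all 22 analyses run, and changed which genes passed. Without the replicate block, 3509 genes were called for withdrawal, 0 for CK666 against control -LIF2i (1251 at an unadjusted p under 0.05) and 2966 for CK666 against self-renewal, with 5, 0 and 7 of the 47, all lowered and 0 raised. For withdrawal, 2 of the 47 were raised with library totals in place of TMM, which moved the median of all genes to 0.08, and 0 with effective length offsets. For CK666 against control -LIF2i, 565 genes were called with no expression filter, 1140 with DESeq2, 553 with limma voom, 149 with length offsets and 1367 in a fit of the 2 groups alone. Of the 47, 7, 0, 1 and 8 were called, all lowered, with DESeq2, length offsets, coding transcripts only and the 2 groups alone. Of all genes these settings called 8.44%, 1.02%, 1.86% and 9.67%, and lowered 4.115%, 0.416%, 0.929% and 4.96%. For CK666 against self-renewal the 2-group fit called 19 of the 47, 18 lowered, against 28.9% of all genes called and 13.1% lowered.

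Leaving out libraries gave 3099 to 6588 genes for withdrawal, with 5 to 27 of the 47 called, 5 to 26 lowered and 0 to 1 raised. For CK666 against control -LIF2i it gave 0 to 1811 genes and 0 to 10 of the 47, all lowered. For CK666 against self-renewal it gave 2413 to 6129 genes and 4 to 36 of the 47, 4 to 35 lowered and 0 to 1 raised. Over single genes, 2737 results kept their side of the threshold, among them 121 uncalled values that changed sign, 306 lost a call and 59 gained one. The cause was not tested. With 3 pairs and 4 residual degrees of freedom, small differences can be missed.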
